A study of Mus musculus with 16 samples.

Results

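White adipose tissue of diet-induced obese (DIO) mice was compared between animals given halofuginone and animals given vehicle, over every gene measured. The series holds 16 RNA sequencing libraries from liver and white fat, and the comparison uses the 6 white fat libraries, chosen by their titles: 3 from vehicle mice and 3 from halofuginone mice. Halofuginone at 100 μg/kg or vehicle was injected into the peritoneum every 2 days, and tissue was taken after 8 weeks. The labels write the arms as HFD and H100, and the 100 in the second is read here as that dose. All mice of both arms were obese from diet, so no lean or untreated fat enters the comparison. Strain, sex, age and fat depot are not given in the sources used here, and the labels do not say outright that each library is a separate animal, so p-values measure the spread between these libraries.

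Halofuginone is a derivative of a plant alkaloid and occupies the active site of prolyl-tRNA synthetase, the enzyme that charges transfer RNA with proline. In mammals that activity lies in the bifunctional protein encoded by Eprs. Uncharged transfer RNA activates the kinase GCN2, which phosphorylates the initiation factor eIF2α, lowers general translation and favours translation of the transcription factor ATF4. ATF4 in turn drives genes for amino acid synthesis, amino acid uptake and transfer RNA charging, a programme known as the integrated stress response or amino acid response. Collagens, which are rich in proline, have long been studied as targets of the drug, and obese white fat is a tissue with enlarged adipocytes, added matrix and many macrophages.

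Libraries held between 17070614 and 21387799 counts, and values are given as CPM (counts relative to the library total after scaling by TMM, a factor that aligns the bulk of genes between libraries). Adipocyte transcripts were abundant in all 6 libraries: Fabp4, the fatty acid carrier of adipocytes, ranged from 6154 to 13312 CPM. Summed over 16 adipocyte markers, vehicle libraries ranged from 27563 to 46185 CPM and halofuginone libraries from 34793 to 41875 CPM. Vehicle 3 held the lowest adipocyte sum, the lowest endothelial sum (916 CPM against 1956 to 2757 CPM in the halofuginone libraries) and the highest mast cell sum (999 CPM, against 126 to 148 CPM in the other vehicle libraries and 85.1 to 111 CPM under halofuginone). It also held 78.0 CPM of epididymis markers, most of them from Crisp1 at 63.6 CPM, and halofuginone 1 held 89.2 CPM of testis markers. The next highest library was at 23.7 CPM for epididymis and at 29.3 CPM for testis. On the first principal component of log2 CPM (39.4% of variance) vehicle 2 (65.7), halofuginone 3 (25.5) and vehicle 3 (16.2) lay on one side and vehicle 1 (−9.62), halofuginone 1 (−37.9) and halofuginone 2 (−60.0) on the other. On the second (25.7%) vehicle 1 to 3 were at −21.1, 21.5 and −63.6 and halofuginone 1 to 3 at 30.7, 2.91 and 29.5. Neither component alone separated the arms, though on the second only vehicle 2 lay within the halofuginone range. The part of these differences in the results below was not tested, and values without vehicle 3, or without the vehicle 2 and halofuginone 3 pair, are given beside many of them.

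**Figure D1:**
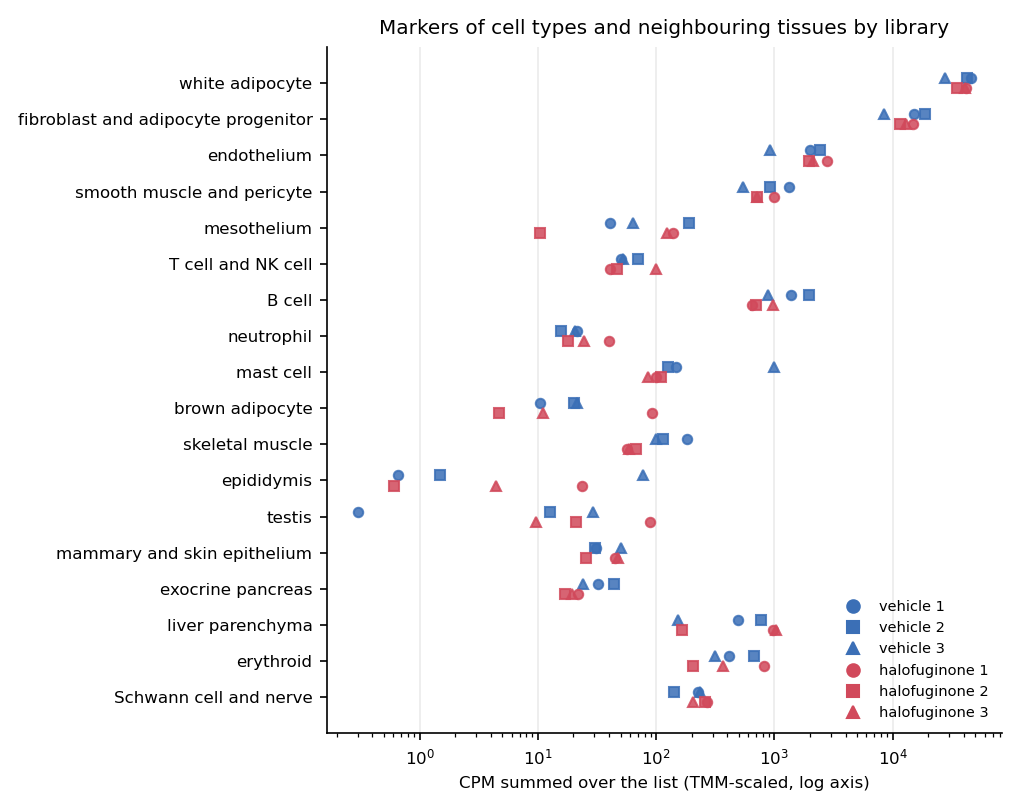
Summed CPM (log axis) of the markers of 18 cell types and neighbouring tissues in each of the 6 fat libraries, vehicle in blue and halofuginone in red, with 1 symbol shape per replicate number. Vehicle 3 stands apart with the highest mast cell (999 CPM) and the lowest endothelial sum (916 CPM), and the white adipocyte sums of the arms overlap.

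Across the whole table no gene stood beyond the replicate spread after adjustment. Of 22322 genes, 14030 passed the filter on low counts, and the quasi-likelihood test of edgeR, adjusted by the Benjamini-Hochberg procedure, called 0 of them at an adjusted p under 0.05 (0% called). The smallest adjusted p was 0.0887, and 37 genes lay under 0.1, 12 on the higher and 25 on the lower side. At an unadjusted p under 0.05 there were 771 higher genes (5.5%) and 1110 lower genes (7.91%). Other tools called more: DESeq2 called 665 genes (212 higher, 453 lower), a single edgeR fit of all 16 libraries 334 (88 higher, 246 lower) and limma on log2(FPKM + 1) 17 (7 higher, 10 lower). Genes are therefore described below by whether all 3 halofuginone libraries lay above, or all 3 below, all 3 vehicle libraries. That held for 1432 genes above (10.2%) and 1455 below (10.4%), and these shares are the background against which each gene group is read. The balance of directions depends on scaling: with library size alone in place of TMM, 54.3% of the genes at an unadjusted p under 0.05 were higher in place of 41%, and 63.7% of non-overlapping genes in place of 49.6%. On log2(FPKM + 1) these shares were 58.2% and 64.4%. Because the tissue is a mixture, fewer cells of a type and less RNA per cell cannot be told apart in any of these values.

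Genes of the amino acid response stood higher under halofuginone. Eprs, the gene for the enzyme that the drug occupies, was at 148, 85.2 and 155 CPM in vehicle 1 to 3 and at 382, 368 and 222 CPM in halofuginone 1 to 3. The arms did not overlap, and the log2 fold change was 1.32 (SE 0.31, edgeR adjusted p = 0.188). Atf4 itself was at 144, 165 and 157 CPM in vehicle and at 403, 406.5 and 221 CPM under halofuginone. Of 22 regulators and effectors of the ATF4 response, all tested, 13 were higher in every halofuginone library than in any vehicle library. That was 59.1%, beside 10.2% of all genes, and 0 were lower. The median log2 fold change was 1.20, against 0.01 over all genes tested. In 12 of those 13 genes halofuginone 3 was the library closest to vehicle, as it was in 53.4% of all genes that were higher without overlap. The median was 1.47 without vehicle 2 and halofuginone 3, and 0.89 without halofuginone 1.

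Trib3, Ddit3 and Atf5 showed wide gaps. Trib3, a pseudokinase that feeds back on ATF4, was at 9.95, 14.98 and 8.25 CPM in vehicle and at 181, 137 and 44.8 CPM under halofuginone (log2 fold change 3.45, SE 0.54, edgeR adjusted p = 0.116). Ddit3, which encodes the stress transcription factor CHOP, was at 17.3, 16.3 and 18.8 CPM against 93.3, 125 and 50.5 CPM (log2 fold change 2.36, SE 0.33, edgeR adjusted p = 0.0954). Atf5, a relative of ATF4 that is itself controlled at translation, was at 68.0, 86.4 and 57.3 CPM against 363, 294 and 195 CPM. For each of these the lowest halofuginone library held more than 2 times the highest vehicle library. Chac1, which degrades glutathione, was a scarcer transcript and was also higher under halofuginone, at 7.74, 10.5 and 5.54 CPM against 27.5, 16.7 and 13.1 CPM.

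Secreted stress hormones were among the higher genes. Gdf15, which signals to the hindbrain, was at 19.1, 16.6 and 34.0 CPM in vehicle and at 92.5, 118 and 65.6 CPM under halofuginone. Fgf21, a hormone made by liver and fat, was scarce, at 1.08, 0.666 and 0.981 CPM against 7.02, 6.14 and 1.47 CPM, so that halofuginone 3 lay just above the vehicle range. A brake on the pathway was higher too: Ppp1r15a, the subunit that directs dephosphorylation of eIF2α, was at 40.2, 39.3 and 38.8 CPM against 131, 120 and 49.1 CPM. Sesn2, an inhibitor of mTORC1, was also higher, at 44.6, 47.9 and 22.8 CPM against 71.0, 124 and 89.5 CPM. The other members of the list that did not overlap were Nupr1, Gadd45a, Jdp2 and Xpot, with log2 fold changes of 0.76 to 1.84. The other 9 overlapped. Among them Atf3, an early stress factor, lay on the lower side at 148, 108 and 310 CPM against 87.3, 132 and 63.9 CPM (log2 fold change −0.999, and −0.44 without vehicle 3), so the list did not move as a block.

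ATF4 binds composite sites in which a C/EBP half-site meets an ATF half-site, and TGATGNAA is a common way to write them. The letters were searched on both strands in the 250 bases before each RefSeq transcription start (RefSeq table on GRCm38.p6, not the build of the deposited counts). They occurred in 3.91% of the 27025 genes in that table, in 7 of 21 genes of the ATF4 list (33.3%), in 3 of 15 genes of serine, glycine, asparagine and proline synthesis (20%), in 1 of 11 amino acid transporters (9.09%) and in 3 of 13 cytosolic aminoacyl-tRNA synthetases (23.1%). These counts cover only tested genes found in that table. Within the ATF4 list the letters were about as frequent among members that were higher without overlap (4 of 13) as among the rest (3 of 8). The same split was 3 of 7 against 0 of 8 for amino acid synthesis and 3 of 8 against 0 of 5 for the synthetases. For transporters it was 0 of 2 against 1 of 9. All these counts are small and were not tested. The stretches below belong to 6 genes that were higher in every halofuginone library, 3 from the stress response, 1 from asparagine synthesis and 2 from transfer RNA charging. They are printed along the gene's own strand with the matched letters in capitals, TTGCATCA and TTTCATCA being the reverse complement of the searched form. A match describes the sequence only, and binding was not measured here.
Chac1 (chr2:119351033-119351072, plus strand): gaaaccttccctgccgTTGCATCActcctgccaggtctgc
Nupr1 (chr7:126625557-126625596, minus strand): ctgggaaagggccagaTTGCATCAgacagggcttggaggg
Fgf21 (chr7:45615606-45615645, minus strand): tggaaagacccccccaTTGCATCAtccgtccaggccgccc
Asns (chr6:7693210-7693248, minus strand): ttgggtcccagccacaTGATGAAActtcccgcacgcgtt
Aars (chr8:111033714-111033753, plus strand): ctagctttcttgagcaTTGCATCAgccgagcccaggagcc
Gars (chr6:55037955-55037994, plus strand): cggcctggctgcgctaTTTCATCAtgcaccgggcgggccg

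The enzymes that make amino acids were higher in part. Of 19 genes tested for serine, glycine, asparagine and proline synthesis, 8 were higher without overlap (42.1%, beside 10.2% of all genes) and 0 lower. The median log2 fold change was 0.40, and 0.17 without halofuginone 1. Asns, asparagine synthetase, was at 48.1, 54.5 and 31.5 CPM in vehicle and at 298, 151 and 136 CPM under halofuginone (log2 fold change 2.12, SE 0.37, edgeR adjusted p = 0.13). Mthfd2, a mitochondrial enzyme of one-carbon metabolism, was at 10.7, 12.0 and 17.9 CPM against 124, 72.8 and 45.3 CPM. Aldh18a1, which carries out the first steps of proline synthesis from glutamate, was at 17.2, 18.2 and 24.0 CPM against 79.8, 56.0 and 39.4 CPM. The next enzyme of that route, encoded by Pycr1, was scarce and its gap was narrow, at 3.24, 3.66 and 3.29 CPM against 8.10, 3.81 and 4.89 CPM. The serine branch overlapped: Phgdh, its first enzyme, had a log2 fold change of −0.36 and Psph, its last, of 0.40.

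Among 15 amino acid transporters tested, 3 were higher without overlap (20%, beside 10.2% of all genes) and 1 was lower (6.67%, beside 10.4%). Slc7a1, the cationic amino acid carrier CAT1, was at 22.7, 27.1 and 23.3 CPM against 114, 86.0 and 40.0 CPM. Slc7a5, the light chain of the large neutral amino acid carrier LAT1, was at 7.97, 12.2 and 9.41 CPM against 54.5, 27.5 and 17.1 CPM, whereas its partner Slc3a2 overlapped (log2 fold change 0.71). Slc7a2, a second cationic carrier, was the lower one, at 10.6, 6.99 and 10.7 CPM against 5.55, 5.90 and 6.89 CPM.

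Transfer RNA charging enzymes of the cytosol were higher in a share close to that of the ATF4 list. Of 20 tested, 11 were higher without overlap (55%, beside the 10.2% of all genes) and 0 lower, with a median log2 fold change of 0.66 that came to 0.46 without halofuginone 1. Aars, the alanine enzyme, was at 99.6, 110 and 118 CPM in vehicle and at 328, 287 and 240 CPM under halofuginone (log2 fold change 1.39, SE 0.18, edgeR adjusted p = 0.0954). Sars, Wars, Gars and Yars had log2 fold changes of 0.92, 0.98, 0.88 and 1.04. The other 9 overlapped, those for lysine (Kars, −0.09) and glutamine (Qars, −0.30) among them, so Eprs was one of several rather than the single synthetase with more transcript. In 10 of the 11 genes halofuginone 3 was closest to vehicle.

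**Figure D2:**
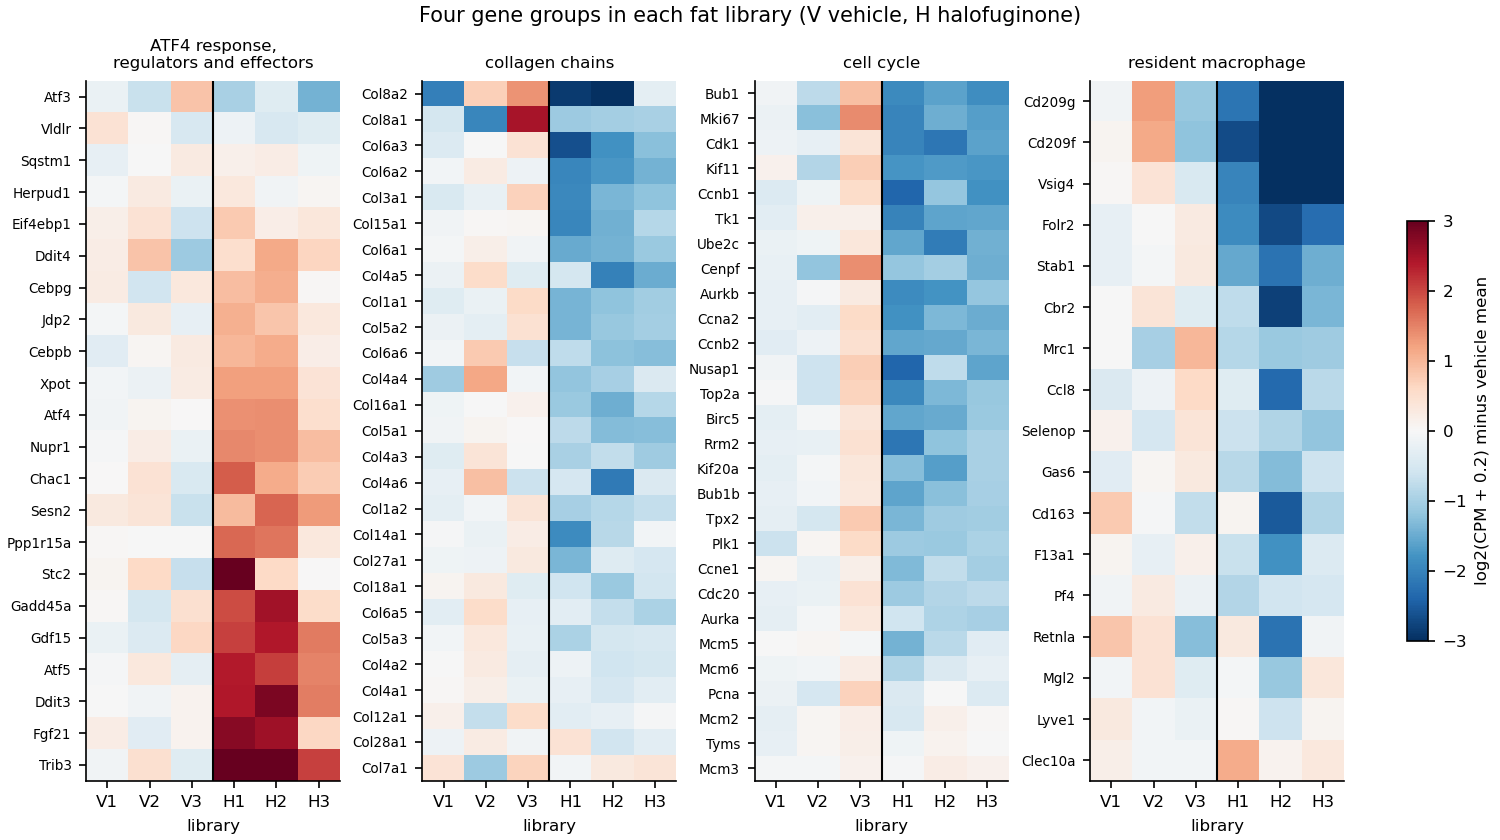
Log2(CPM + 0.2) minus the vehicle mean (colour, red higher and blue lower, limited to 3 in each direction) for every tested member of 4 gene lists, by library; V1 to V3 are vehicle and H1 to H3 halofuginone. In the ATF4 list 13 of 22 members are higher in all 3 halofuginone libraries with H3 mostly the palest, and in the collagen, cell cycle and resident macrophage lists 18 of 27, 23 of 28 and 10 of 17 members are lower in all 3.

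Ranked by size, the genes higher without overlap and with at least 5 CPM in the halofuginone arm were a mixed set. The largest log2 fold change was that of Cox6a2, a subunit of cytochrome c oxidase best known from heart and muscle, at 4.67 (SE 0.50, edgeR adjusted p = 0.0954). It was at 0.1799, 0.333 and 0.173 CPM in vehicle and at 6.46, 7.86 and 3.74 CPM under halofuginone, and the vehicle values rest on 3, 6 and 3 counts. As a ratio of summed counts it was 26.4 times higher, with an exact 95% interval of 14.9 to 51.5 that covers counting error only. Car6, a secreted carbonic anhydrase, was at 1.38, 0.721 and 0.635 CPM against 18.5, 34.0 and 5.16 CPM, and F5, coagulation factor V, at 0.959, 1.498 and 1.96 CPM against 11.1, 24.2 and 7.47 CPM. In both, halofuginone 2 was highest and halofuginone 3 lowest of the treated libraries. Trib3, Mthfd2 and Ddit3 of the amino acid response were also among the 15 largest.

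Several of the 15 are genes of immune cells. Cd86, a costimulatory ligand of antigen-presenting cells, was at 11.0, 10.3 and 9.24 CPM in vehicle and at 24.9, 103 and 45.1 CPM under halofuginone, while the other 13 tested genes of antigen presentation overlapped and the list median was 0.00. Chil3, a chitinase-like lectin of macrophages, was at 2.64, 2.55 and 2.89 CPM against 11.4, 6.97 and 31.5 CPM. Bcl2a1a, an antiapoptotic gene of blood cells, was at 2.64, 3.11 and 1.67 CPM against 11.6, 19.6 and 8.31 CPM, and Klra9, a receptor of the Ly49 family, at 1.38, 0.555 and 0.577 CPM against 5.89, 21.8 and 17.5 CPM. Both of these have near-identical copies in the mouse genome, so their counts are uncertain. Slfn1 depended on 1 library: it was at 23.0 CPM in halofuginone 3 and at 1.87 and 2.32 CPM in the other treated libraries, and its log2 fold change of 2.59 was 0.51 without halofuginone 3.

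The remaining genes of this set were Rasd1, a glucocorticoid-induced small GTPase, Mcoln3, a lysosomal calcium channel, Mreg, which acts in organelle transport, and Trim66. Rasd1 was at 13.9, 9.10 and 19.5 CPM in vehicle and at 21.7, 155 and 104 CPM under halofuginone, so halofuginone 1 lay just above the vehicle range. Cyb5r1, a reductase of the cytochrome b5 family, had a smaller fold change and a tighter one, at 37.2, 43.3 and 35.6 CPM against 154, 188 and 119 CPM. Its log2 fold change was 1.99 (SE 0.21, edgeR adjusted p = 0.0954), and with Cox6a2 it was one of the higher genes among the 10 with the smallest p.

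**Figure D3:**
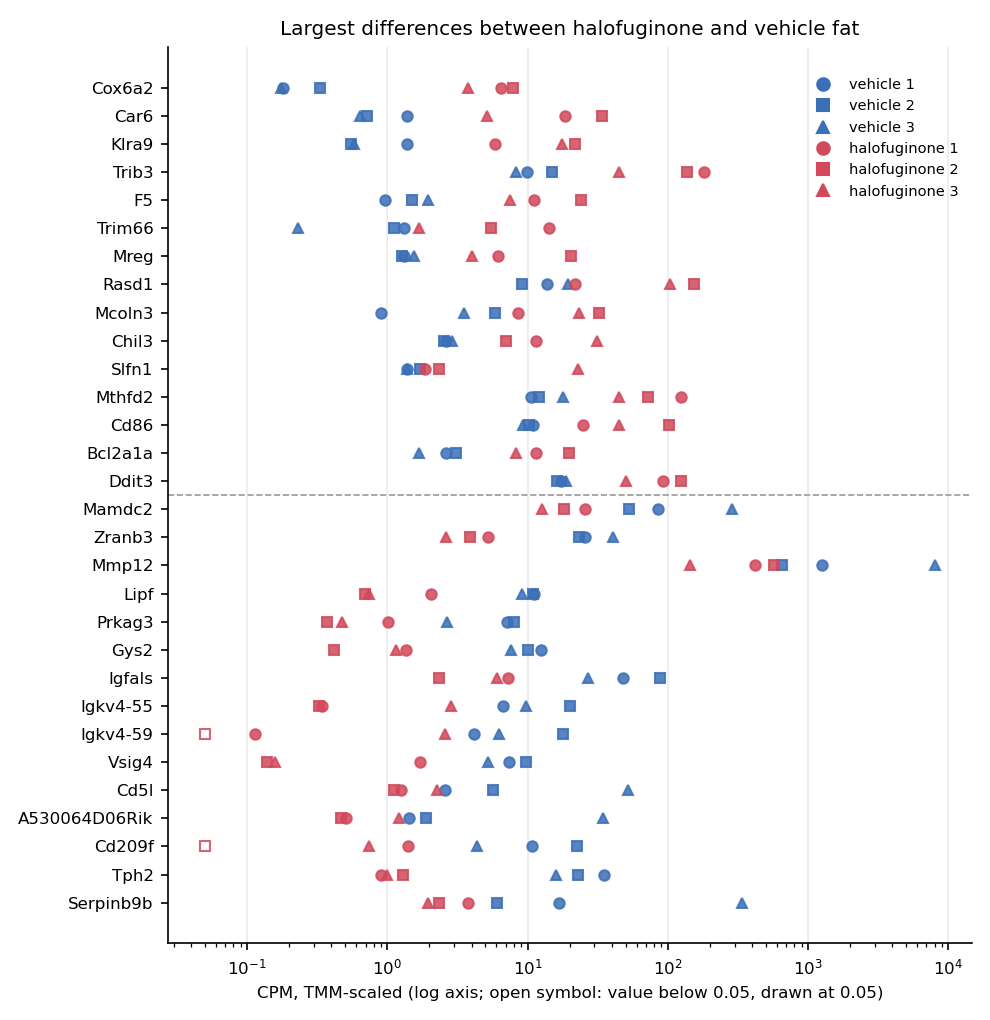
CPM in each library (log axis) of the 15 genes with the largest log2 fold change above and the 15 below 0 among genes whose arms do not overlap and whose higher arm averages at least 5 CPM; vehicle in blue, halofuginone in red, 1 symbol shape per replicate number. Most rows show a gap between the arms, and vehicle 3 lies far to the right in Serpinb9b, A530064D06Rik, Cd5l and Mmp12.

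On the lower side the smallest p was that of Tph2, a tryptophan hydroxylase of serotonin synthesis known mainly from neurons. It was at 35.0, 22.9 and 15.99 CPM in vehicle and at 0.906, 1.301 and 0.999 CPM under halofuginone, a 23.0-fold lower level with a log2 fold change of −4.51 (SE 0.37). Its edgeR adjusted p of 0.0887 was the smallest of all genes, and leaving out any one library kept the log2 fold change between −4.74 and −4.17. Zranb3, an annealing helicase of stalled replication forks, was at 25.6, 23.1 and 41.0 CPM against 5.27, 3.86 and 2.63 CPM (log2 fold change −2.93, SE 0.34).

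Metabolic genes were among the 15 largest lower ones. Gys2, the glycogen synthase of liver and fat, was at 12.5, 10.04 and 7.62 CPM in vehicle and at 1.36, 0.418 and 1.16 CPM under halofuginone (log2 fold change −3.36, SE 0.48, edgeR adjusted p = 0.0954). Igfals, which stabilises circulating insulin-like growth factors, was at 48.3, 87.7 and 26.9 CPM against 7.30, 2.32 and 6.10 CPM. Prkag3, a subunit of the energy sensor AMPK, was at 7.195, 8.04 and 2.66 CPM against 1.02, 0.372 and 0.473 CPM. Lipf, a gastric-type lipase, was at 11.2, 11.0 and 9.06 CPM against 2.04, 0.697 and 0.736 CPM.

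The size of 5 of the 15 largest lower genes rested in good part on vehicle 3. Serpinb9b, an intracellular serpin, was at 340 CPM in vehicle 3 and at 16.9 and 6.10 CPM in vehicle 1 and 2, against 1.95 to 3.79 CPM under halofuginone, and its log2 fold change of −5.49 was −2.10 without vehicle 3. Without that library A530064D06Rik went from −4.10 to −1.18, Cd5l, a secreted macrophage protein, from −3.71 to −1.42, Mmp12, macrophage elastase, from −3.15 to −1.35, and Mamdc2 from −2.92 to −1.88. The immunoglobulin segments Igkv4-59 and Igkv4-55 were lower as well (log2 fold changes −3.40 and −3.38), and reads of such segments are shared among near-identical genes. Their halofuginone values rested mainly on halofuginone 3, with 2, 0 and 49 counts for Igkv4-59 and 6, 7 and 54 for Igkv4-55, and without it the fitted values were −7.31 and −5.15.

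Collagen transcripts were lower across types. Of 27 collagen chain genes tested, 18 were lower without overlap (66.7%, beside the 10.4% of all genes) and 0 higher, and the median log2 fold change was −1.11, with −0.96 without vehicle 2 and halofuginone 3. Their summed level was 9178, 10753 and 11213 CPM in vehicle and 5677, 5336 and 6098 CPM under halofuginone. Collagen VI is a beaded microfibril abundant in fat. Col6a2 was at 538, 680 and 512 CPM in vehicle and at 147, 170 and 213 CPM under halofuginone (log2 fold change −1.71, SE 0.21, edgeR adjusted p = 0.0954), and Col6a1 at 471, 555 and 462 CPM against 174, 186 and 227 CPM. Col6a3 had a log2 fold change of −1.84, the largest difference among the chains without overlap.

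The fibrillar chains were lower too. Col1a1 was at 386, 439 and 740 CPM in vehicle and at 191, 216 and 242 CPM under halofuginone, and Col3a1 at 1206, 1406 and 2665 CPM against 435, 640 and 719 CPM. Col5a1, which sets fibril diameter, was at 269, 309 and 292 CPM against 167, 117 and 119 CPM. Of the basement membrane chains, Col4a1 was abundant and close between the arms, at 2395, 2668 and 2043 CPM against 1986, 1649 and 1901 CPM (log2 fold change −0.36), and Col4a2 overlapped (−0.42). The scarcer chain Col4a5 was lower without overlap by more, at 21.5, 35.8 and 18.9 CPM against 16.99, 5.81 and 8.57 CPM (log2 fold change −1.28).

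Other matrix genes followed with smaller shares. Of 32 glycoproteins and proteoglycans, 12 were lower without overlap (37.5%, beside 10.4% of all genes) and 0 higher, with a median log2 fold change of −0.76. Tnc, tenascin C, had a small spread in both arms, at 43.6, 44.0 and 42.9 CPM in vehicle and at 20.6, 21.1 and 19.5 CPM under halofuginone (log2 fold change −1.09, SE 0.13, edgeR adjusted p = 0.0954). Sparc, a collagen-binding protein, was at 5182, 5597 and 3107 CPM against 2328, 1839 and 2180 CPM, and Fbn1, fibrillin 1, at 184, 181 and 333 CPM against 46.0, 69.9 and 90.6 CPM. A further pair of secreted or surface proteins outside the list were among the 10 genes with the smallest p. Gpc1, a glypican, was at 94.1, 110 and 136 CPM against 33.8, 25.5 and 29.0 CPM, and Fstl1, a follistatin-like glycoprotein, at 415, 335 and 462 CPM against 143, 154 and 159 CPM.

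The machinery that matures collagen moved less than collagen itself. Of 24 such genes tested, 8 were lower (33.3%) and 1 higher (4.17%) without overlap, beside 10.4% and 10.2% of all genes. The median log2 fold change was −0.27. Loxl2, a cross-linking oxidase, was at 71.4, 78.3 and 148 CPM in vehicle and at 28.0, 41.2 and 48.7 CPM under halofuginone, and Pcolce, an enhancer of procollagen cleavage, at 59.4, 72.1 and 97.9 CPM against 24.3, 36.9 and 46.5 CPM. Among 22 genes of TGF-beta signalling and myofibroblasts, 2 were higher (9.09%) and 3 lower (13.6%) without overlap, near the shares of all genes. The median was −0.02. Fap, a fibroblast surface protease, was at 8.87, 7.99 and 14.3 CPM against 4.42, 4.83 and 4.58 CPM. The other 17 genes of that list overlapped.

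Markers of fibroblasts and adipocyte progenitors were measured beside these genes. Of 14 such markers, 5 were lower without overlap (35.7%, beside 10.4% of all genes) and 0 higher (beside 10.2%). The median log2 fold change of −0.44 came to −0.26 without halofuginone 1 and −0.77 without halofuginone 3. Their summed level overlapped (8426 to 18696 CPM in vehicle, 11623 to 14740 CPM under halofuginone). Pi16, a marker of early progenitors, was at 59.7, 31.1 and 47.6 CPM in vehicle and at 6.40, 21.3 and 17.9 CPM under halofuginone, while Pdgfra overlapped at 161, 137 and 79.5 CPM against 102, 116 and 103 CPM. Their part in the matrix values was not tested, and 2 of the 5 lower markers, Col15a1 and Fbn1, are also in the matrix lists.

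Cell cycle genes were lower in the largest share of the 26 pathway lists. Of 28 tested, 23 were lower without overlap (82.1%, beside 10.4% of all genes) and 0 higher, with a median log2 fold change of −1.48. Cdk1, the mitotic kinase, was at 9.35, 8.66 and 13.6 CPM in vehicle and at 2.49, 2.14 and 3.26 CPM under halofuginone (log2 fold change −2.00, SE 0.30, edgeR adjusted p = 0.105). Top2a, topoisomerase of replicating chromosomes, was at 20.1, 13.2 and 32.5 CPM against 5.21, 7.95 and 9.21 CPM. Mki67, the proliferation marker Ki-67, was at 23.5, 11.0 and 71.5 CPM against 6.57, 9.48 and 8.26 CPM. Vehicle 3 was the highest library in 21 of the 23 genes, against 50% of all genes that were lower without overlap, and without it the list median was −1.13 and Mki67 went from −2.12 to −1.09. On log2(FPKM + 1), which compresses scarce genes, the median was −0.86. The replication licensing gene Mcm3 overlapped (log2 fold change 0.11), with 4 others of the list.

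Macrophage genes were lower in part, and the part differed by class. Adgre1, which encodes the macrophage surface protein F4/80, was at 370, 334 and 451 CPM in vehicle and at 138, 123 and 138 CPM under halofuginone, and was among the 10 genes with the smallest p (log2 fold change −1.53, SE 0.17). Csf1r, the receptor on which macrophages depend, was at 399, 435 and 535 CPM in vehicle and at 114, 113 and 167 CPM under halofuginone (log2 fold change −1.80, SE 0.23, edgeR adjusted p = 0.0954). The complement genes C1qa, C1qb and C1qc had log2 fold changes of −1.28, −1.06 and −1.16, each without overlap. Of 24 general macrophage genes 10 were lower without overlap (41.7%, beside 10.4% of all genes) and 0 higher, with a median log2 fold change of −0.74. Vehicle 3 was the highest library in all 10 of them, and the median was −0.30 without it. The other 14 genes overlapped, the pan-leukocyte tetraspanin gene Cd53 (0.58) on the higher side.

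Markers of resident macrophages had a larger median difference. Of 17 tested, 10 were lower without overlap (58.8%, beside 10.4% of all genes) and 0 higher. The median log2 fold change was −0.95, and −0.78 without vehicle 3. Folr2, a folate receptor of perivascular tissue macrophages, was at 66.3, 77.7 and 94.3 CPM in vehicle and at 21.0, 11.9 and 16.04 CPM under halofuginone (log2 fold change −2.28, SE 0.25, edgeR adjusted p = 0.0954). Vsig4, a complement receptor, was at 7.44, 9.76 and 5.25 CPM against 1.70, 0.139 and 0.158 CPM, and the lectin gene Cd209f at 10.7, 22.5 and 4.33 CPM against 1.42, 0.0465 and 0.736 CPM. Stab1, a scavenger receptor, was at 236, 267 and 343 CPM against 96.5, 59.9 and 101 CPM. Cd163 (−0.90) and Retnla (−0.59) overlapped. Tbxas1, thromboxane synthase, a gene of myeloid cells outside these lists, was at 65.7, 61.0 and 94.0 CPM against 20.4, 22.4 and 23.8 CPM.

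The lipid-associated macrophage list was divided. Of 24 genes, 9 were lower without overlap (37.5%, beside 10.4% of all genes) and 0 higher. The median log2 fold change of −0.40 was −0.09 without vehicle 3. Itgax, which encodes CD11c, was at 330, 283 and 638 CPM in vehicle and at 109, 104 and 48.8 CPM under halofuginone (log2 fold change −2.26, SE 0.43, and −1.81 without vehicle 3). Trem2, the lipid receptor that marks these cells, was at 218, 203 and 383 CPM against 137, 179 and 78.4 CPM (log2 fold change −1.03, and −0.68 without vehicle 3). Gpnmb (−0.32) and Cd63 (0.38), both abundant in lipid-laden macrophages, overlapped. Among other leukocytes, the mast cell sum was lower without overlap, at 148, 126 and 999 CPM in vehicle 1 to 3 against 85.1 to 111 CPM. Of 7 mast cell markers tested, 2 were lower (28.6%) and 1 higher (14.3%) without overlap, beside 10.4% and 10.2% of all genes. Their median log2 fold change of −2.29 was −0.43 without vehicle 3. The B cell sum overlapped at 887 to 1971 CPM against 647 to 971 CPM. T cell and NK cell markers also overlapped in sum (50.1 to 70.9 CPM against 40.9 to 99.4 CPM).

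Inflammatory mediators did not move together. Of 29 chemokines and cytokines, 2 were higher and 2 lower without overlap (6.90% each, beside 10.2% and 10.4% of all genes). The median log2 fold change was −0.04. Il1rn, the interleukin 1 receptor antagonist, was at 49.2, 41.4 and 149 CPM in vehicle and at 12.9, 14.2 and 20.8 CPM under halofuginone (log2 fold change −2.32, and −1.50 without vehicle 3). Cxcl12, a stromal chemokine, was one of the 2 higher ones at 219, 246 and 148 CPM against 300, 353 and 446 CPM. Ccl2 (−0.69) and Il6 (0.56) overlapped. Of 25 interferon-stimulated genes 23 had a log2 fold change above 0, with a list median of 0.60 against 0.01 over all genes tested. Only Stat2 did not overlap (4%, beside 10.2% of all genes), and without halofuginone 3 the list median was 0.10.

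Lipogenic genes were lower in a subset. Of 21 genes of fatty acid synthesis, 6 were lower (28.6%) and 1 higher (4.76%) without overlap, beside 10.4% and 10.2% of all genes. The median log2 fold change was −0.36, with −0.18 without halofuginone 2 and −0.51 without halofuginone 3. Fasn, fatty acid synthase, was at 733, 1066 and 417 CPM in vehicle and at 137, 100.1 and 289 CPM under halofuginone. Pnpla3, a lipid droplet acyltransferase and lipase induced by feeding, was at 36.7, 49.9 and 21.6 CPM against 8.78, 3.30 and 9.05 CPM (log2 fold change −2.36, SE 0.47). Scd2, a desaturase, was at 171, 192 and 126 CPM against 31.99, 47.9 and 78.2 CPM. Slc25a1, the mitochondrial citrate carrier, and Me1, malic enzyme, had log2 fold changes of −1.13 and −0.73. Acly (−0.36), Scd1 (0.17) and Srebf1 (0.18) overlapped, and Elovl5, an elongase, was the single higher one (0.31).

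Sterol synthesis genes were lower by modest steps. Of 23 tested, 10 were lower without overlap (43.5%, beside 10.4% of all genes) and 0 higher. The median log2 fold change was −0.48 and stayed between −0.56 and −0.40 when any one library was left out. Nsdhl, a late enzyme of the pathway, was at 30.5, 37.95 and 26.2 CPM in vehicle and at 11.5, 13.8 and 15.2 CPM under halofuginone (log2 fold change −1.22, SE 0.20, edgeR adjusted p = 0.12). Insig1, the sterol sensor that retains SREBP in the endoplasmic reticulum, was at 145, 186 and 116 CPM against 61.8, 83.0 and 73.8 CPM. Hmgcs1, an early enzyme, overlapped (log2 fold change 0.88).

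The genes that define adipocyte storage and identity mostly overlapped, as did most genes tested. In the lists of this paragraph 4.55% to 15.8% of members were higher without overlap, beside 10.2% of all genes. From 0% to 8.70% were lower, beside 10.4% of all genes. Of 23 genes of triglyceride assembly and lipid droplets, 3 were higher and 2 lower without overlap (median 0.07). G0s2, an inhibitor of adipose triglyceride lipase, was at 103, 60.6 and 67.0 CPM in vehicle and at 396, 334 and 195 CPM under halofuginone (log2 fold change 2.01, SE 0.33, edgeR adjusted p = 0.123). Gpat3, a glycerol phosphate acyltransferase, was at 46.7, 41.1 and 23.5 CPM against 72.3, 90.1 and 88.2 CPM. Of 22 genes of lipolysis and fatty acid uptake only Abhd5, the coactivator of that lipase, did not overlap, at 153, 155 and 134 CPM against 204, 182 and 238 CPM. In that list 14 log2 fold changes were above 0 and 8 below, with Lpl at −0.99 among the lower, overlapping ones. Of 19 adipokines and insulin response genes, 3 were higher: Cfd, which encodes adipsin (log2 fold change 1.88, SE 0.38), Irs2, an insulin receptor substrate, at 79.0, 95.2 and 55.3 CPM against 198, 181 and 126 CPM, and Insr, the insulin receptor, at 137, 109 and 88.4 CPM against 212, 150 and 161 CPM. Adipoq (−0.25) and Lep (−0.81) overlapped. Pparg, the master regulator of adipocytes, was at 151, 166 and 107 CPM against 197, 204 and 186 CPM, and was the only one of 18 adipogenic transcription factors without overlap.

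Mitochondrial and heat generating genes showed no common direction. Of 37 oxidative phosphorylation subunits 2 were higher (5.41%) and 1 lower (2.70%) without overlap (median −0.05). Among 29 fatty acid oxidation genes 3 were higher (10.3%) and 1 lower (3.45%, median −0.03). The shares of all genes were 10.2% and 10.4%. Acot2, a mitochondrial acyl-CoA thioesterase, was the exception in size, at 14.9, 17.03 and 11.7 CPM in vehicle and at 107, 63.7 and 32.5 CPM under halofuginone (log2 fold change 2.21, SE 0.43). Acot1, its near-identical neighbour, overlapped (−0.47), and reads of the pair may be shared. Of 16 thermogenic genes, 2 were lower (12.5%, beside 10.4% of all genes) and 1 higher (6.25%, beside 10.2%) without overlap. Ckb, a creatine kinase, was lower at 125, 164 and 380 CPM against 33.9, 28.3 and 61.7 CPM. Gatm of creatine synthesis was lower at 12.7, 7.99 and 15.5 CPM against 4.42, 4.23 and 6.94 CPM. The higher one was Pparg, given above (log2 fold change 0.47). Ucp1, the uncoupling protein of brown fat, did not pass the filter: it was at 0.11, 0.03 and 0.36 FPKM in vehicle and at 28.4, 0.29 and 0.27 FPKM under halofuginone. Halofuginone 1 thus stood apart from the other 5 libraries, and the summed brown adipocyte markers were at 93.1 CPM there and at 4.74 to 21.3 CPM elsewhere. The thermogenic median of 0.13 was −0.62 without that library, and the part of these markers in the values was not tested.

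Protein folding genes also overlapped for the most part. Of 24 genes of endoplasmic reticulum folding, 1 was higher and 1 lower without overlap (4.17% each, beside 10.2% and 10.4% of all genes). The median was −0.11. Ern1, the sensor IRE1α, was the higher one at 29.7, 30.3 and 38.5 CPM against 64.9, 86.3 and 47.3 CPM, and Hspa5, the chaperone BiP, had a log2 fold change of −0.49 with overlap. Of 18 genes listed as cytosolic heat shock, 2 were higher (11.1%) and 1 lower (5.56%) without overlap (median −0.03). The 2 higher ones, Hspe1 and Hspd1 (log2 fold changes 0.51 and 0.45), encode mitochondrial rather than cytosolic chaperonins. The lower one was Bag3 (−0.49). The ATF4 list thus differed from both folding lists in the share of members outside the vehicle range, 13 of 22 against 2 of 24 and 3 of 18, as a description without a test.

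**Figure D4:**
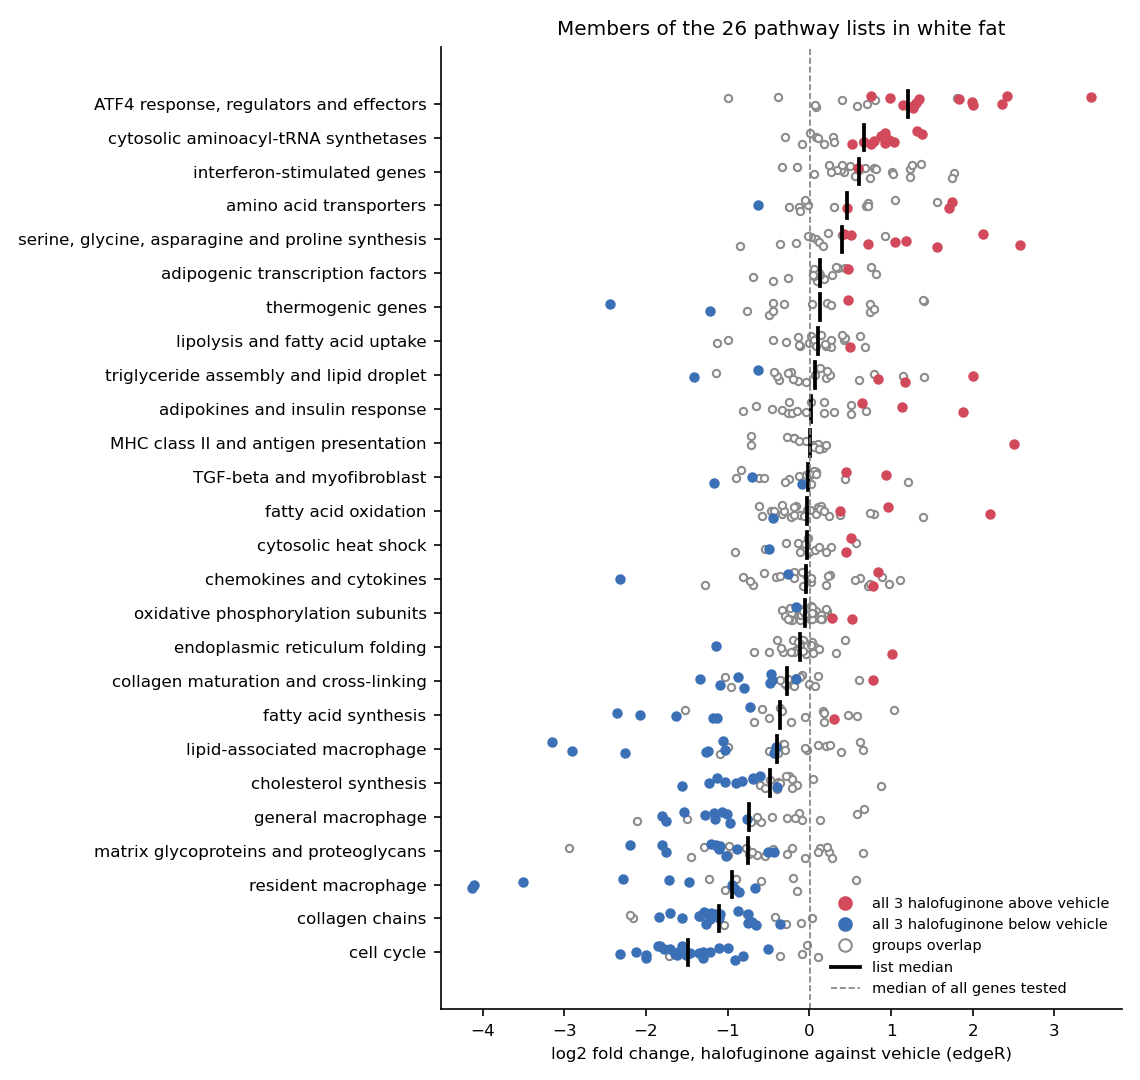
Log2 fold change (edgeR) of every tested member of 26 pathway lists, ordered by list median; filled points are genes whose arms do not overlap (red higher, blue lower), open points overlap, black bars are medians and the dashed line is the median of all genes. The ATF4 response (median 1.20) lies at the top and the cell cycle (median −1.48) at the bottom, with oxidative phosphorylation and the folding lists near 0.

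Abundant transcripts lay on both sides. Of the 100 genes with the highest mean FPKM (counts scaled by gene length as well as depth), 16 were higher and 15 lower without overlap, and the others overlapped. Of 19 ribosomal protein genes among them, 12 were higher and 0 lower, where 10.2% and 10.4% of all genes were. Their log2 fold changes were small, at 0.12 to 0.46 for the 12. Rps3a1 was at 581, 515 and 579 CPM in vehicle and at 747, 860 and 697 CPM under halofuginone. One of the 12, Rpl10-ps3, is annotated as a pseudogene and its counts may come from its parent gene. The metallothioneins Mt1 and Mt2, metal-binding proteins induced by stress and glucocorticoids, had log2 fold changes of 1.26 and 1.49, and Mt1 was at 261, 186 and 203 CPM against 736, 388 and 430 CPM. Gpx3, an extracellular glutathione peroxidase, was at 480, 767 and 371 CPM against 1299, 1130 and 1389 CPM. On the lower side lay the macrophage lysozyme Lyz2, at 3253, 2588 and 6548 CPM against 2092, 1847 and 2235 CPM (log2 fold change −1.0045, and −0.50 without vehicle 3), the glycolytic genes Aldoa and Gapdh (log2 fold changes −0.55 and −0.52), and the cytoskeletal genes Vim, Actb and Actg1 (−0.77, −0.34 and −0.31). Actg1 was at −0.15 without vehicle 3. Prdx1, a peroxiredoxin, was at 3383 CPM in vehicle 3 and at 701 and 682 CPM in the other vehicle libraries, against 453 to 572 CPM under halofuginone, and its log2 fold change of −1.58 was −0.38 without vehicle 3.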

How the data were processed

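Poly(A)-selected RNA of white adipose tissue was sequenced from 3 vehicle and 3 halofuginone libraries, grouped by their titles. Per the submitters' processing notes, fastp 0.18.0, Bowtie2 2.2.8, HISAT2, StringTie 1.3.1, RSEM and build mm39 were used, with no role stated for each. The authors deposited counts and FPKM per gene. The deposited counts are whole numbers, yet 9 to 31 genes per library with a positive FPKM are listed at a count of 0, so they may be rounded estimates. The strand of the libraries is not given in the sources used here, so overlapping and antisense genes, like near-identical paralogs, are uncertain.

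Counts were tested with edgeR 4.0.16 in R 4.3.3 (filterByExpr with a minimum count of 10, TMM, glmQLFit and glmQLFTest, two-sided, Benjamini-Hochberg over 14030 genes). SE was obtained from the size of the log2 fold change over the root of the F statistic. A count of 0 allows up to 3 counts, or 0.139 to 0.1799 CPM. The smallest exact permutation p of 3 against 3 is 0.1, so none is given. No pair of libraries within an arm agreed within sampling noise (chi-square per degree of freedom 52.8 to 193). Alternatives were DESeq2 1.42.0, limma 3.58.1 on the deposited FPKM, on the scale log2(FPKM + 1), which understates differences of low genes, other scalings and filters, a fit of all 16 libraries, a replicate block and leaving out libraries. The procedure was also run on simulated counts. These held no outlying library such as vehicle 3 and no differences in tissue mixture, so that run does not cover either feature.

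Genes in the text come from the 15 largest differences each way among non-overlapping genes (minimum of 5 CPM in the higher arm), the 10 smallest p-values, the non-overlapping genes of the 100 highest FPKM, up to 4 members per list and Eprs. Genes named as overlapping, and further members of the lists such as Fgf21, Pycr1 and Mki67, were added after their values were seen. Overlapping genes near 0 whose direction changed with the processing are mostly counted without being named, so the named genes are no sample of stability. The comparison and the 26 pathway and 18 marker lists (802 entries, 1 unmatched) were chosen with earlier results of these data known. Lists are described by counts and medians, with no test. Some list members are counted but not reported here by name.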

Additional observations from a re-analysis of the deposited data

How the results depend on the processing

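The count of genes at an adjusted p under 0.05 depended on the tool: it was 0 with edgeR, 334 in 1 fit of all 16 libraries, 665 with DESeq2, 17 with limma on log2(FPKM + 1) and 1 with no filter on low counts. It was 0 to 1 when any one library was left out, the 1 being without vehicle 3; there and with no filter it was Tph2. On log2(FPKM + 1), 730 genes were lower at an unadjusted p under 0.05 and 958 were lower without overlap, the cell cycle median was −0.86, the heat shock median 0.060 and Acot1 was at 0.068. With library size alone the heat shock median was 0.046. With a minimum of 5 CPM in 3 libraries the median of amino acid synthesis was 0.18. With vehicle 2 and halofuginone 3 both left out, which makes separation easier by construction, 3394 genes were higher and 3428 lower without overlap, the transporter median was 0.67, the heat shock median −0.13 and Scd1 was at −0.28. Leaving out any one library gave 452 to 897 higher and 632 to 1198 lower genes at an unadjusted p under 0.05, and 1885 to 2743 higher and 1603 to 2489 lower genes without overlap. Over the same omissions the list medians ranged from 0.17 to 0.52 for amino acid synthesis, 0.46 to 0.82 for aminoacyl-tRNA synthetases, −0.10 to 0.34 for lipolysis, −0.012 to 0.21 for adipokines, −0.62 to 0.60 for thermogenic genes, −0.17 to 0.13 for heat shock, −1.60 to −1.13 for the cell cycle and −0.38 to 0.42 for chemokines. Single genes ranged from −0.64 to 0.28 (Gpnmb), −0.73 to 0.0145 (Hspa5) and −0.34 to 0.45 (Scd1). Genes named as not overlapping that moved by over 1.5 times, beyond those given above, were Vsig4 (−5.59 without halofuginone 1), Pycr1 (0.36 without halofuginone 1), Mreg (1.90 without halofuginone 2), Stat2 (0.24 without halofuginone 3) and Pparg (0.31 without vehicle 3). The list medians ranged from −0.51 to −0.18 for fatty acid synthesis, 0.29 to 0.58 for transporters and −0.22 to 0.27 for triglyceride assembly. Where not stated, the cause was not tested.

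With the replicate number as a block, 0 genes were called and 477 were higher at an unadjusted p under 0.05, against 771 without it. Same-numbered libraries correlated at 0.11, −0.57 and −0.12 in their deviations from the arm means, so the numbers were not taken to pair the samples.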
